A study of Mus musculus with 2 samples.

Results

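Retinal ganglion cells (RGCs) are the output neurons of the retina, and RGC cluster 2 is the group of nuclei that the deposited cell tables annotate as RGCs and place in cluster 2. It holds 296 of 14123 nuclei in the series, 111 from the Cre- library and 185 from the Tet tcKO library. Both libraries came from whole retinas of C57 BL/6J mice at postnatal day 21, and 1 library was made per genotype. Tet tcKO animals carried floxed alleles of Tet1, Tet2 and Tet3, which the Chx10-Cre-GFP transgene recombines in retinal progenitor cells. That transgene is mosaic, and although the study bred for 2 working copies of it to limit this, a Tet tcKO retina may still hold cells that kept the alleles. Control animals lacked Cre, and no source used here says whether they carried the floxed alleles. Retinas were pooled for a pair of dissociations per genotype, and the cell tables do not say which pool a nucleus came from. Each genotype is therefore 1 sample, differences between the genotypes were not tested, and every interval below is a 95% interval for counting error alone.

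RGCs collect input from bipolar and amacrine cells and send action potentials along the optic nerve to the brain. They comprise many types that differ in the adhesion molecules, ion channels and receptors they use. TET enzymes oxidise methylated cytosine, the first step of active DNA demethylation, and loss of the 3 enzymes in retinal progenitors was studied for its effect on how retinal cell types form. The questions here are which genes mark cluster 2 among RGCs, how alike its nuclei are, and how its transcripts differ between Tet tcKO and Cre- retinas.

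Cluster 2 made up 19.6% of RGC nuclei in the Cre- library (111 of 567, exact Clopper-Pearson interval 16.4 to 23.1) and 26.3% in the Tet tcKO library (185 of 704, 23.1 to 29.7). Its nuclei were the deepest among RGCs in the Cre- library. They held a median of 4092 unique molecular identifiers (UMIs, counted transcripts) in Cre- and 3561 in Tet tcKO, against 1310.5 and 1953 in the other RGCs. The lowest nucleus of cluster 2 held 1679 UMIs in Cre- and 1607 in Tet tcKO. When only nuclei with 1000 UMIs or more were counted, the share in Cre- was 25.6% and that in Tet tcKO 26.6%, because 134 of the 456 other Cre- RGC nuclei fell under that depth and 9 of 519 did in Tet tcKO. Summed over its nuclei, the cluster held 486078 UMIs in Cre- and 804092 in Tet tcKO. The other RGCs are not the same clusters in both libraries. In Cre- they were mainly cluster 8 (394 nuclei), with 58 of cluster 31 and 4 of cluster 15. In Tet tcKO they were mainly cluster 31 (273 nuclei) and cluster 15 (217), with 29 of cluster 8. Only 1 cell barcode was shared by both libraries, and none within cluster 2.

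The markers named here stood higher in cluster 2 than in amacrine cells or in rods and cones of both libraries. The authors annotated clusters by marker genes, so these levels are no independent check of the annotation. Levels are UMIs of a gene per 1000000 UMIs of the population (CPM), and they are not corrected for gene length. Of a wider list of 16 RGC identity genes, which includes Rbpms, only 8 reached 100 CPM in cluster 2 of either library. Rbpms, an RNA-binding protein used as a marker of all RGCs, stood at 1208 CPM in Cre- (interval 1112 to 1309) and 1116 in Tet tcKO (1044 to 1191), against 71.9 and 64.0 in rods and cones. Srgap1, a GTPase-activating protein of the Slit-Robo pathway, stood at 1129 and 1070 CPM, against 972 and 911 in the other RGCs. Tmem163, a zinc transporter, was at 379 and 287 CPM. Coro6, an actin-binding coronin, was at 156 and 180 CPM, and Sv2c, a synaptic vesicle protein, at 265 and 225. After each nucleus was thinned to 500 UMIs, 42.3% of Cre- nuclei (33.0 to 52.1) and 46.5% of Tet tcKO nuclei (39.1 to 54.0) had an Rbpms UMI, against 3.69% and 3.40% of rods and cones. Without thinning the shares were 92.8% and 96.2%.

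In amacrine cells and in rods and cones of both libraries, Rbpms, Srgap1, Tmem163, Coro6 and Sv2c stood between 8.54 and 94.8 CPM, under the 156 to 1208 of cluster 2. Relative to the other RGCs, the log2 ratio of Srgap1 was 0.22 in Cre- and 0.23 in Tet tcKO, and that of Tmem163 was 0.48 and 0.49. Rbpms was higher in cluster 2 by 0.67 in Cre- and by 0.11 in Tet tcKO. Coro6 differed in direction, at -0.35 in Cre- and 1.25 in Tet tcKO. Its level in the Tet tcKO nuclei was 270 CPM in cluster 8, 116 in cluster 31 and 40.7 in cluster 15, and in the Cre- nuclei it was 217 in cluster 8 and 70.7 in cluster 31.

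**Figure D1:**
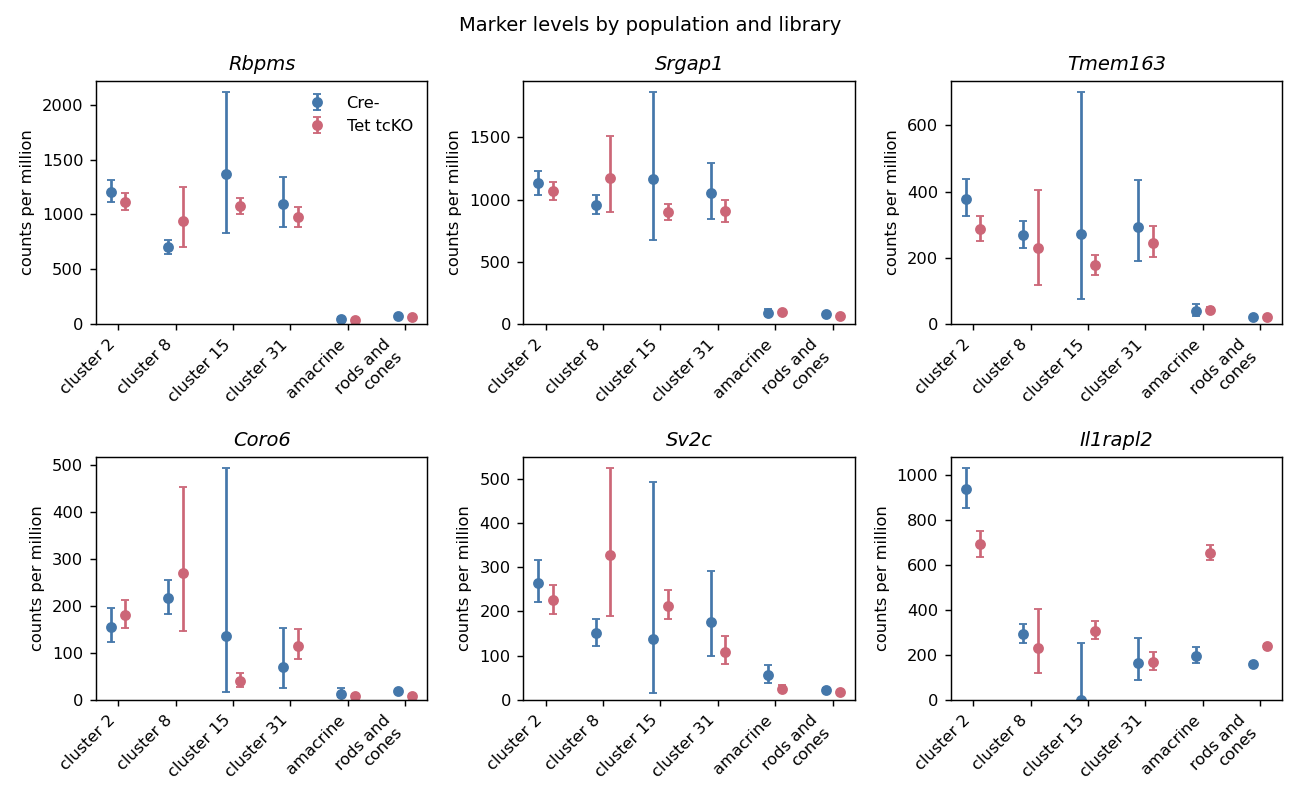
Level of the 5 markers and of Il1rapl2 in CPM (vertical axis) for the 4 RGC clusters, amacrine cells, and rods and cones, in the Cre- (blue) and Tet tcKO (red) libraries. Points are summed counts and bars are 95% counting intervals, which are wide for cluster 15 of Cre- (4 nuclei). Rbpms and Srgap1 are far higher in each RGC cluster than in amacrine cells or rods and cones, while Il1rapl2 is highest in cluster 2 of Cre-.

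Few genes stood 2-fold or more apart from the other RGCs in both libraries. Of 1882 genes at 100 CPM or more in cluster 2 or the other RGCs of each library, 2 were higher in both libraries (0.106%) and 2 were lower in both (0.106%). Because clusters are drawn from these same transcripts, the values describe the cluster and carry no test. Il1rapl2, a synaptic adhesion protein of the interleukin-1 receptor family (chrX:136471357-137749670, plus strand, GRCm39), was at 940 CPM in Cre- and 691 in Tet tcKO, against 273 and 257 in the other RGCs. Bnc2, a zinc finger protein, was at 103 and 147 CPM, against 49.7 and 39.9. The next genes were just under the 2-fold line in 1 library. Fgf1, a growth factor, had log2 ratios of 0.99 and 1.06, and Ccdc192 had 1.32 and 0.97. Alk, a receptor tyrosine kinase of neurons, stood at 658 and 654 CPM against 313 and 355, with log2 ratios of 1.07 and 0.88. Elavl4, a neuronal RNA-binding protein, was higher by 0.89 and 0.83, and Cdh6, a cadherin, by 1.66 and 0.70. Tmeff2, Mast4, Dab1, Zmat4, Enox1, Arpp21, Ano6 and Mblac2 complete the 15 leading genes, and the smaller of their 2 ratios lay between 0.63 and 0.74.

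The genes lowest in cluster 2 were few and modest. Synpr, a synaptic vesicle membrane protein, stood at 154 CPM in Cre- and 179 in Tet tcKO, against 321 and 381 in the other RGCs, which is a log2 ratio of -1.06 and -1.09. Rtl4, a gene derived from a retrotransposon, was at 67.9 and 84.6 CPM against 138 and 181. Adamtsl1, Celf5, C130073E24Rik, Brinp3, Bcr, 4933406I18Rik, Zmym3 and Gprasp2 were lower in both libraries without reaching 2-fold in both. Among them Brinp3 was lower by 0.73 in Cre- and by 1.86 in Tet tcKO, where the other RGCs held 411 CPM against 144 in Cre-.

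Markers of named RGC types gave no single type for the cluster. Among 8 counted of 16 RGC identity genes, Ebf1, a transcription factor, stood highest at 1559 and 1464 CPM, followed by Rbpms. Ebf3, Isl1, Nefm, Stmn2, Nrn1 and Chrnb3 lay between 108 and 274 CPM. Slc17a6, Pou4f1, Pou4f2, Pou4f3, Thy1, Sncg, Nefl and Nefh, also on that list, stayed under 100 CPM in both libraries. Of 6 alpha RGC markers, Il1rapl2 was the 1 gene above 100 CPM. Spp1, Kcng4 and Tpbg stood between 2.06 and 20.6 CPM. Of 6 markers of intrinsically photosensitive RGCs, Igf1, a growth factor, was at 224 and 169 CPM, while Opn4, which encodes melanopsin, was counted 2 times in Cre- and 5 times in Tet tcKO. None of the Tbr1, Neurod2 or W3 RGC markers reached 100 CPM. Foxp1, a transcription factor, was at 239 and 271 CPM, and Foxp2 at 32.9 and 47.3. For direction-selective RGCs, Cdh6 was at 212 and 147 CPM, and Cartpt, a neuropeptide precursor, at 47.3 and 24.9.

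Il1rapl2 was concentrated in a minority of the nuclei. In Cre-, 22 of 111 nuclei held 3 or more Il1rapl2 UMIs (19.8%, 12.9 to 28.5), and they carried 445 of the cluster's 457 Il1rapl2 UMIs. In Tet tcKO, 25 of 185 nuclei did (13.5%, 8.94 to 19.3), with 496 of 556 UMIs. The highest nucleus held 91 UMIs in Cre- and 46 in Tet tcKO. In the rest of the cluster the gene stood at 32.9 and 90.3 CPM, levels that the threshold itself limits. Single UMIs of this gene are common outside RGCs, since 7.68% of Cre- and 11.7% of Tet tcKO rods and cones had one at 500 UMIs, against 18.0% and 14.6% of cluster 2. The threshold of 3 UMIs was chosen after the values were seen. In Cre-, 3 nuclei sat at 3 UMIs and 1 at 2, and in Tet tcKO 2 sat at 3 and 11 at 2. The nuclei above it were deeper, with medians of 5559.5 and 5121 UMIs against 3820 and 3415 in the rest.

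Some genes that set the Il1rapl2-rich nuclei apart from the rest of the cluster were shared by both libraries and others were not. Of 1679 genes at 100 CPM or more in cluster 2 of both libraries, leaving out Il1rapl2, 14 were 2-fold or more higher in these nuclei in both libraries (0.834%), 65 were lower in both (3.87%) and 1 went in opposite directions. Taken by library, 40 genes were higher in these nuclei in the Cre- library and 40 in the Tet tcKO library, and 135 and 119 were lower. Sox6, a transcription factor, stood at 588 CPM in the Il1rapl2-rich nuclei of Cre- against 95.8 in the rest, and at 581 against 70.7 in Tet tcKO. Ccdc192 was at 736 against 110 in Cre- and at 797 against 111 in Tet tcKO. Frmd5, a cytoskeletal FERM protein, was at 1142 against 277 and at 1306 against 396. Gm1604a, Sema5a, a semaphorin, Fgf1, Ntng2, a netrin-G, Dlgap1, a postsynaptic scaffold, Sdk2, an adhesion protein of synaptic layers, Zmat4, Slc10a7 and Nkain2 complete the 12 highest, with log2 ratios from 1.06 to 2.42.

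Several receptors and guidance genes were far lower in these nuclei. Gabrg3, a GABA-A receptor subunit, stood at 99.3 CPM against 1082 in Cre- and at 78.9 against 820 in Tet tcKO. Nrp2, a semaphorin receptor, was counted 2 times in the Il1rapl2-rich nuclei of Cre- and 1 time in those of Tet tcKO, with log2 ratios of -3.53 (interval -6.61 to -1.63) and -4.17 (-9.49 to -1.66). Grm7, a metabotropic glutamate receptor, was at 273 against 1281 CPM and at 208 against 1125. Sorcs3, Itpr1, Tafa1, Cdh4, Kcnh8, Lrrc7, Sema6a and Patj were also among the 12 lowest, with log2 ratios from -3.61 to -1.77, of which Sorcs3 and Itpr1 rest on 2 to 4 UMIs in these nuclei. Bnc2, the other gene past 2-fold for the whole cluster, went the opposite way from Il1rapl2. It had 5 of 50 UMIs in the Il1rapl2-rich nuclei of Cre- and 1 of 118 in those of Tet tcKO. Among listed genes below the level filter, Nefh, the heavy neurofilament, stood at 157 against 19.2 CPM in Cre- and at 64.6 against 31.6 in Tet tcKO, and Prph, an intermediate filament protein of long axons, had all 13 of its Cre- UMIs and 6 of its 7 Tet tcKO UMIs there. Grin2a, a subunit of the NMDA-type glutamate receptor, was lower in them by 1.64 and 1.70 on the log2 scale. Dcc, the netrin receptor, had log2 ratios of -0.77 in Cre- and -2.70 in Tet tcKO.

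**Figure D2:**
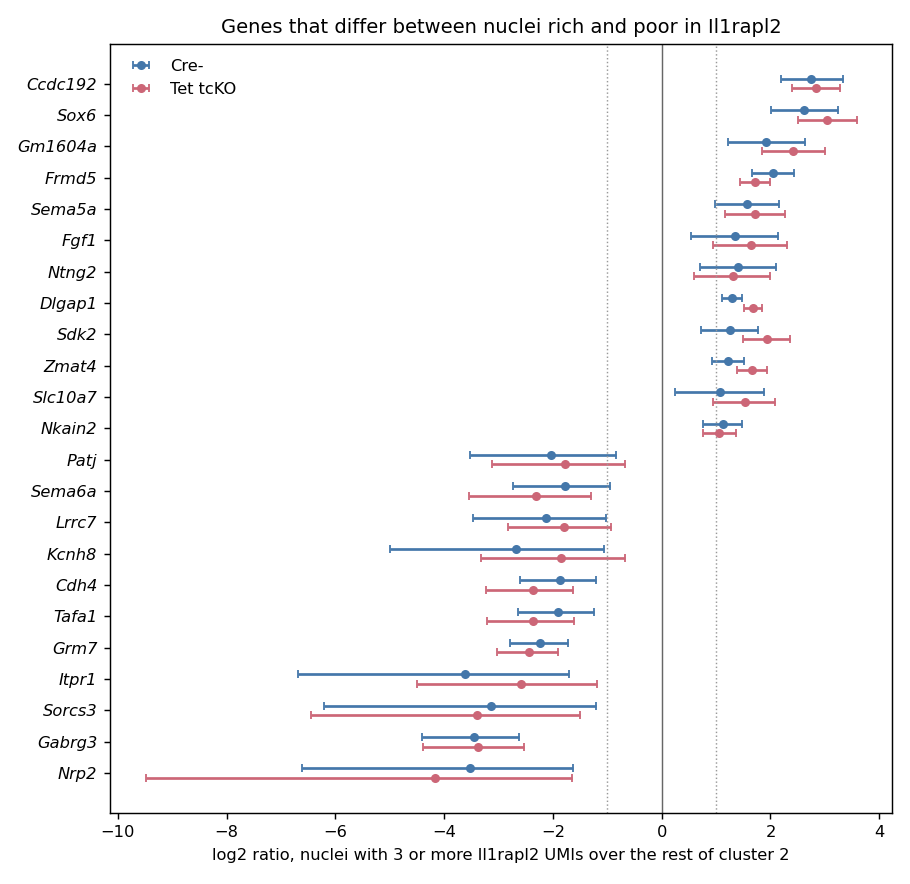
Log2 ratio of CPM in cluster 2 nuclei with 3 or more Il1rapl2 UMIs over the rest of the cluster (horizontal axis), for the 12 highest and 11 of the 12 lowest genes ranked by the smaller ratio of the 2 libraries, Cre- in blue and Tet tcKO in red. Bars are 95% counting intervals, and dotted lines mark 2-fold. All genes plotted lie past 2-fold on the same side in both libraries, which is how they were chosen.

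The variance over the mean among single nuclei was highest for a small set of neuronal genes. At 1000 UMIs per nucleus, its median was 1.07 in Cre- and 1.04 in Tet tcKO, and counting alone gives 1. For genes with few UMIs this measure stays near 1 even where nuclei differ. Its median therefore does not show how alike the nuclei are. The measure also rises with the level of a gene, so it favours highly counted genes. Kcnip4, a subunit of A-type potassium channels, reached 9.03 and 9.92 at 8007 and 8882 CPM. Lrrc4c, a netrin-G ligand, reached 5.80 and 4.02, Pcdh9, a protocadherin, 5.03 and 5.95, and Il1rapl2 5.07 and 4.63. Kcnd2, the channel that Kcnip4 binds, reached 6.16 and 3.45. For Myh13, a myosin, 70 of 97 Cre- UMIs came from 1 nucleus, and for Memo1 36 of 105 Tet tcKO UMIs did.

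Turning to the genotypes, the targeted genes were read first. Tet1 was counted 29 times in cluster 2 of Cre- and 46 times in that of Tet tcKO, or 59.7 and 57.2 CPM. For Tet2 the levels were 156 and 111 CPM and the log2 ratio -0.50 (-0.96 to -0.04), and Tet3 was at 123 CPM in both, a ratio of 0.00 (-0.48 to 0.48). Counts cover whole genes and include transcripts from which the floxed exons are missing, so these values check neither the deletion nor the labels. Of 17 genes of DNA methylation and demethylation, 4 were at 100 CPM or more, and none of the 4 was 2-fold apart. Their median log2 ratio was -0.03, against 0.02 over all 2094 genes counted, of which 0.812% were higher and 0.812% lower. Dnmt3a, a DNA methyltransferase, was at 405 and 471 CPM.

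Among the nuclei grouped in cluster 2, transcripts stood close between the genotypes. Clusters are drawn from these same transcripts, so nuclei that differed more could fall in other clusters. The grouping itself limits how far the genotypes can differ here, and its part was not tested. Of 2094 genes that reached 100 CPM in 1 library or both, 17 were 2-fold or more higher in Tet tcKO (0.812%) and 17 were 2-fold or more lower (0.812%). Most genes past 2-fold were under 100 CPM in the library where they were lower. They passed the filter only through the library where they were high. Such a filter favours large ratios, so these counts describe the libraries and carry no test. The median log2 ratio, Tet tcKO over Cre-, was 0.02, with 80% of genes between -0.35 and 0.41. For 1845 of the 2094 genes the whole counting interval lay within 2-fold. The interval lay above 0 for 208 genes and below 0 for 213. Counted by the same rule in their own population, 2.96% of genes were higher and 4.09% lower in the other RGCs. In amacrine cells 2.64% were higher and 3.65% lower. The other RGCs compare unlike clusters, and the populations differ in depth. In cluster 31, which both libraries hold, 5.58% were higher and 5.63% lower, on only 84835 UMIs in Cre-.

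**Figure D3:**
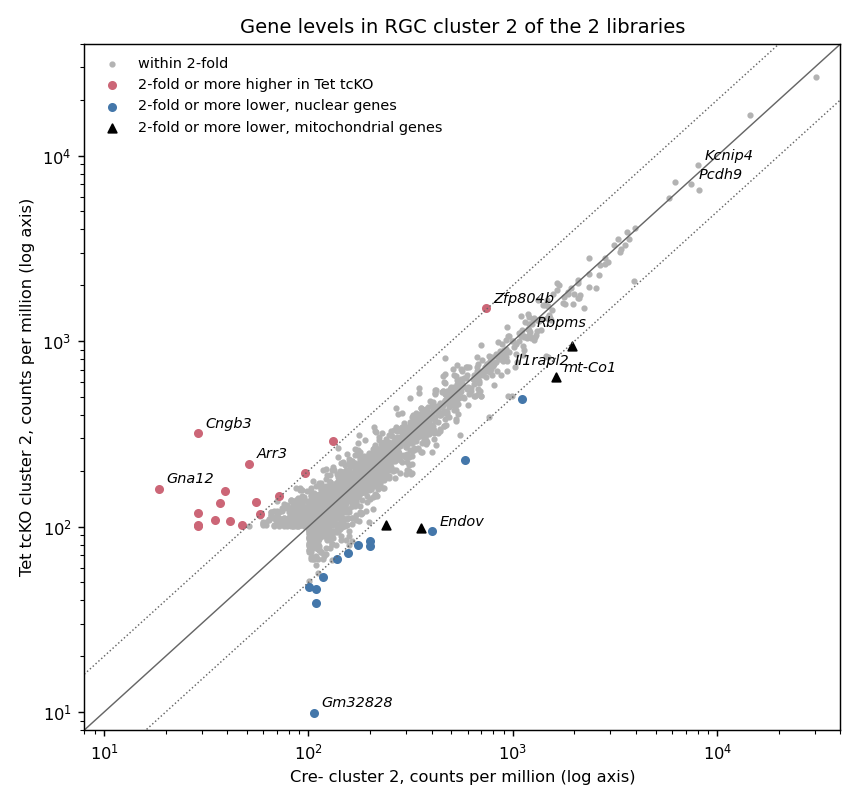
Level of 2094 genes in RGC cluster 2 of the Cre- library (horizontal axis) and the Tet tcKO library (vertical axis) in CPM, both on log axes. The solid line marks equal levels and dotted lines mark 2-fold. The 17 genes higher in Tet tcKO (red) stand between 18.5 and 737 CPM in Cre-, and the 17 lower genes include 4 mitochondrial ones (triangles).

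Cone photoreceptor genes led the genes higher in Tet tcKO. Cngb3, a subunit of the cone cyclic nucleotide-gated channel, stood at 28.8 CPM in Cre- and 320 in Tet tcKO, giving a log2 ratio of 3.47 (2.70 to 4.36). It was found in 13 of 111 Cre- nuclei and 128 of 185 Tet tcKO nuclei, with no more than 9 UMIs in a nucleus. Arr3, cone arrestin, stood at 51.4 and 219 CPM, giving a ratio of 2.09 (1.48 to 2.76). Gnb3, the G protein beta subunit of cones and ON bipolar cells, was at 37.0 and 134 CPM, giving a ratio of 1.86 (1.13 to 2.67). The same genes were higher in the other cells of the Tet tcKO library. Rods and cones are not the same cells in both libraries, since the deposited annotation gives 5214 rods and 265 cones in Cre- and 6 rods and 3225 cones in Tet tcKO, so every genotype ratio given for them compares unlike cells. The ratio of Cngb3 was 2.31 in the other RGCs, 2.15 in amacrine cells and 3.11 in rods and cones, where its level was 236 CPM in Cre- and 2041 in Tet tcKO. Summed over 8 cone markers, the level in cluster 2 was 144 CPM in Cre- and 775 in Tet tcKO, and in the other RGCs 387 and 978. Opn1sw, the short-wavelength cone opsin, had 7 and 65 UMIs in cluster 2, and Gnat2, cone transducin, 3 and 48. The part of free photoreceptor RNA in these values was not tested.

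The other genes higher in Tet tcKO are not on the cone marker list. Gna12, a G protein alpha subunit, stood at 18.5 and 160 CPM, giving a ratio of 3.12 (2.15 to 4.28), against 2.33 in the other RGCs and 2.18 in rods and cones. Abcd4, a lysosomal transporter, was at 39.1 and 155 CPM. Kcnab1, a potassium channel beta subunit, was at 28.8 and 101 CPM. Its ratio was 1.81 in cluster 2, 1.02 in the other RGCs, 0.26 in amacrine cells and 1.57 in rods and cones. Cdh8, a cadherin of neurons, stood at 28.8 and 102 CPM, giving a ratio of 1.82 (1.00 to 2.76), while its ratio was 0.87 in the other RGCs, 0.14 in amacrine cells and -0.26 in rods and cones. Ppt1, a lysosomal thioesterase, was at 35.0 and 108 CPM, giving a ratio of 1.63, against 0.06 in amacrine cells and 0.47 in rods and cones. Fam135b, Zbtb8os, Cert1, a ceramide transfer protein, and Ccdc136 had ratios from 1.13 to 2.04. The ratio of Ccdc136 was 0.53 in the other RGCs, 1.43 in amacrine cells and 2.25 in rods and cones. Fam135b, Zbtb8os and Cert1 had 0.74, 0.82 and 0.73 in rods and cones. Kmt5b, Zfp804b, Mat2a, Fgd1 and Riok3 make up the rest of the 17. They were named after their values were seen, since the rule took 12. Zfp804b had the highest level of them, at 737 and 1510 CPM, with a ratio of 1.04 in cluster 2, 0.15 in the other RGCs and -0.31 in rods and cones.

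Mitochondrial transcripts and some photoreceptor transcripts were among the genes lower in Tet tcKO. Of 8 rod markers, 4 were counted, all 4 had a log2 ratio below 0 with a median of -0.85, and 1 was 2-fold or more lower. Rom1, a protein of photoreceptor outer segment discs that is not on that list, was at 175 and 79.6 CPM. Summed over the 8 rod markers, the level in cluster 2 was 1422 and 777 CPM, against 2580 and 912 in the other RGCs and 10805 and 5472 in rods and cones. Of the 13 genes on the mitochondrial chromosome, 11 were counted and 4 were 2-fold or more lower, mt-Atp8, mt-Co1, mt-Nd5 and mt-Cytb. The median ratio of the 11 was -0.90 in cluster 2 and -1.24 in the other RGCs. Mitochondrial genes made up 1.45% of UMIs in cluster 2 of Cre- and 0.768% in Tet tcKO, against 5.47% and 1.76% of the whole libraries. The mitochondrial share of a library moves with these ratios, and its part in them was not tested.

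The rest of the lower genes were a mixed group. Endov, a ribonuclease that cleaves at inosine, stood at 403 and 94.5 CPM, giving a ratio of -2.09 (-2.49 to -1.70), and its ratio lay between -2.43 and -2.06 in the other RGCs, amacrine cells and rods and cones. Myo3a, an unconventional myosin of sensory cells, was at 200 and 78.3 CPM, with ratios of -1.35 in cluster 2 and -1.54 in rods and cones. Glul, glutamine synthetase of Müller glia, was at 156 and 72.1 CPM, and it was the 1 counted gene of 7 Müller glia markers. Inpp5f, a phosphoinositide phosphatase, stood at 109 and 46.0 CPM, giving a ratio of -1.24, while its ratio was 0.18 in the other RGCs and 0.77 in rods and cones. The long noncoding RNA 9530026P05Rik had -1.26 in cluster 2, -0.18 in the other RGCs and 0.35 in amacrine cells, and Gm44077 had -1.50, with 14 of its 53 Cre- UMIs in 1 nucleus. For Gm32828, the lowest of all at -3.43, 49 of 52 Cre- UMIs came from 1 nucleus, and without the highest nucleus of each library its ratio was 0.50. The gene given only as ENSMUSG00000095041 was at 1103 and 486 CPM. Markers of microglia, astrocytes and vascular cells were low in cluster 2 of both libraries. Summed, they reached 6.17 and 19.9 CPM for 5 microglia genes, 4.11 and 4.97 for 3 astrocyte genes, and 47.3 and 57.2 for 5 vascular genes, of which Cldn5 and Rgs5 had 0 UMIs in Cre-.

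**Figure D4:**
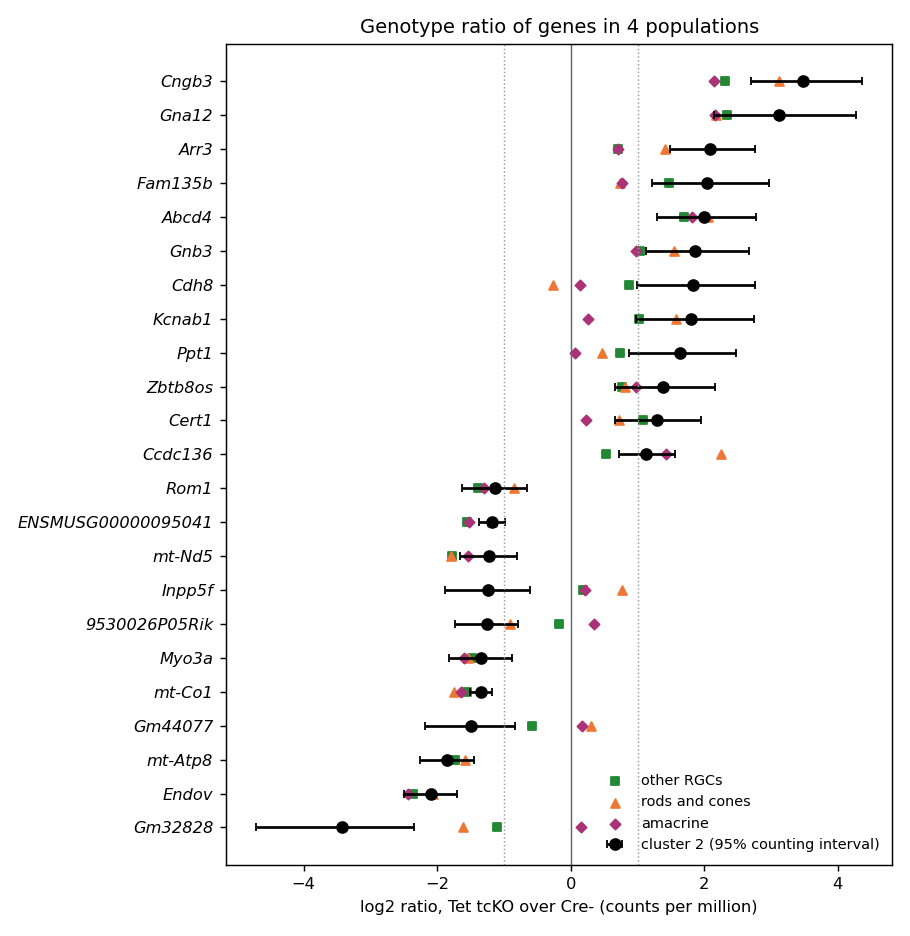
Log2 ratio of CPM, Tet tcKO over Cre- (horizontal axis), for the 12 highest and 11 of the 12 lowest genes of RGC cluster 2, with 95% counting intervals for cluster 2 (black) and the ratios in the other RGCs (squares), rods and cones (triangles) and amacrine cells (diamonds). Rods and cones are mainly rods in Cre- and cones in Tet tcKO. Cngb3, Gna12, Abcd4, Endov, Myo3a, mt-Atp8, mt-Co1, mt-Nd5 and ENSMUSG00000095041 lie past 2-fold in all 4 populations. Cdh8, Ppt1, Zbtb8os, Inpp5f, 9530026P05Rik and Gm44077 lie past it in cluster 2 alone, and Inpp5f is below 0 in cluster 2 alone.

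Within cluster 2, whose grouping limits such differences, the genes by which RGCs signal and wire stood near equality between the genotypes. The same held for all 2094 genes counted, of which 0.812% were higher and 0.812% lower, with a median log2 ratio of 0.02. The list values that follow are therefore not particular to these genes. Of 8 counted RGC identity genes, none was 2-fold apart, and the median log2 ratio was -0.14. Nefm, the medium neurofilament, had the lowest, at 171 and 108 CPM or -0.66 (-1.11 to -0.21). Of 10 counted voltage-gated calcium channel genes and 5 sodium channel genes, none was 2-fold apart, with medians of 0.01 and 0.21. Scn1a and Scn8a, sodium channels of action potential firing, stood at 704 and 686 CPM and at 376 and 430. Of 19 counted potassium channel genes, Kcnab1 was the 1 past 2-fold, and the median was 0.00. Of 18 counted glutamate receptor genes, none was, and the median was 0.12. Grik5, a kainate receptor subunit, had 0.65 (0.17 to 1.15), and Grin3a was lowest at -0.67 (-1.25 to -0.09). For 8 GABA and glycine receptor genes the median was -0.13. Of 14 counted genes of transmitter release, none was 2-fold apart. Syt1, the calcium sensor of vesicle release, stood at 2808 and 2798 CPM.

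For 15 counted genes of the axon cytoskeleton the median was -0.06 and none was past 2-fold, with Kif5c, a kinesin, at 298 and 192 CPM or -0.64 (-0.98 to -0.30). For 17 counted genes of netrin, semaphorin and ephrin guidance the median was 0.00 and the range -0.51 to 0.38. Dcc stood at 1479 and 1552 CPM, Epha6, an ephrin receptor, at 1099 and 1068, and Unc5c, a repulsive netrin receptor, at 372 and 351. Robo1 and Robo2, receptors for Slit, had ratios of 0.03 and 0.12. Robo3, of the same family, was not counted in Cre- (0 UMIs) and reached 39 UMIs in Tet tcKO. With the Cre- count of 0 set to 3, its log2 ratio was 2.97, a value that rests on that floor. Robo3 stayed under 100 CPM and outside the counts above, and its ratio in rods and cones was 6.07. No gene of the immature neuron list or of the immediate early and injury list reached 100 CPM in cluster 2. Nr4a1, an immediate early gene, had 29 of 486078 UMIs in Cre- and 18 of 804092 in Tet tcKO, so it was lower there. Atf3, an injury gene, had 0 in both.

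In the other RGCs, where the values compare unlike clusters, the median stood farther from 0 than in cluster 2 for 9 of the 12 lists with 4 or more counted members. It did not for RGC identity genes (0.05), sodium channels (0.14) and DNA methylation (0.03). Among the 9, the median was 0.63 for glutamate receptors, 0.41 for GABA and glycine receptors, 0.40 for guidance genes and -0.44 for the axon cytoskeleton. Dcc had a ratio of 0.97 in the pooled other RGCs, and in cluster 31, which is present in both libraries, Kcnip4 had 0.02 against 0.82 in the pooled group. Lrrc4c had 0.69 in cluster 31 and 1.12 in the pooled group, against -0.05 in cluster 2.

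**Figure D5:**
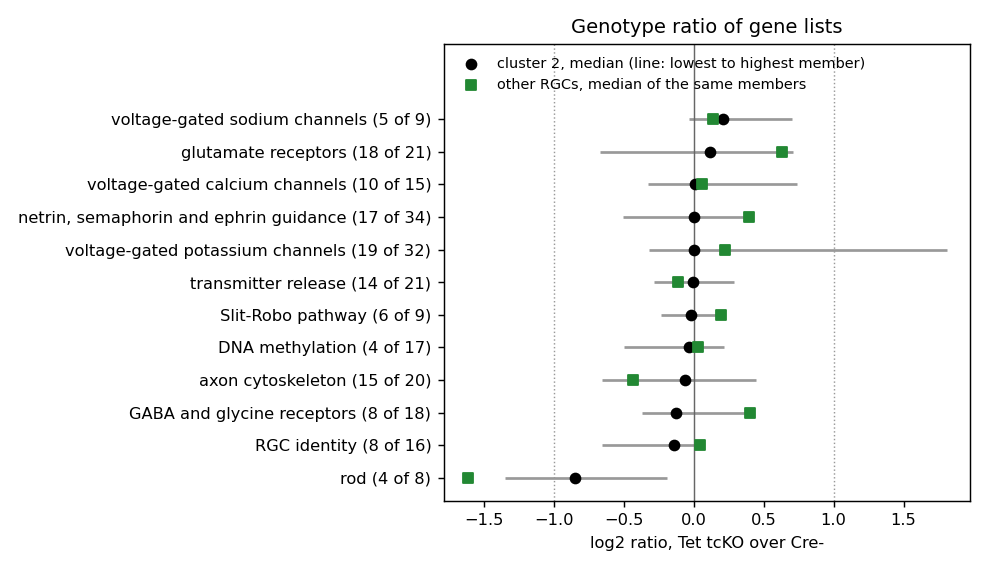
Log2 ratio, Tet tcKO over Cre- (horizontal axis), for gene lists with 4 or more members at 100 CPM or more in RGC cluster 2; the numbers in brackets are members counted and members in the list. Black points are medians in cluster 2, lines run from the lowest to the highest member, and squares are medians of the same members in the other RGCs. The cluster 2 medians lie between -0.14 and 0.21 for 11 of the 12 lists, and the rod list lies at -0.85.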

How the data were processed

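The authors made single-nucleus libraries with a PIPseq 3′ kit, processed reads with pipseeker against GRCm39, removed ambient RNA with CellBender and kept nuclei in Monocle3 by transcript number and mitochondrial share. The deposited values are whole UMI counts for each gene in each nucleus, and nuclei held 502 to 9981 UMIs. The deposited cell tables give a mitochondrial percent per nucleus, with a highest value of 20.0, and a size factor column, a per-nucleus signal, which was not used. Cell type and cluster are the deposited annotation. The authors compared genotypes with a Monocle3 model over nuclei. That test was not repeated, because nuclei of 1 library are not replicates.

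Within a library, the UMIs of all nuclei in a population were added up and divided by their total (CPM). Ratios were taken without a pseudocount, with a count of 0 set to 3, and carry exact conditional 95% intervals. Levels carry exact Poisson intervals and shares exact Clopper-Pearson intervals (scipy 1.17.1). The minimum was 100 CPM and the fold 2. Shares used nuclei thinned to 500 UMIs, and variation used 1000. Named genes were the 5 markers, the 15 highest and 10 lowest against the other RGCs, the 12 highest and 12 lowest between genotypes, members of gene lists, the 5 highest and 5 lowest by the difference of the genotype ratio between cluster 2 and the other RGCs, and the 5 most variable per library. Members and lists were chosen with earlier results of these data known. Alternatives used edgeR 4.0.16 for TMM factors and Scrublet in scanpy 1.11.5. No doublets were removed for the values reported. Whole-gene counts cannot separate overlapping genes where strand does not. Intervals were tested on simulated Poisson counts, the model they assume, which does not test them for spread among nuclei. A count of CpG in promoters was void, since 78.1% of the 2094 genes had a promoter window. A few genes that the rule would name are not reported here.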

Additional observations from a re-analysis of the deposited data

Results flagged for a closer look

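Of the 10 genes whose genotype ratio in cluster 2 differed most from that in the other RGCs, every one had opposite signs in the 2 populations. The difference was not tested, since each population has 1 library per genotype, and the other RGCs are mainly cluster 8 in Cre- and clusters 15 and 31 in Tet tcKO. The counting interval of the cluster 2 ratio spans 0 for Syt2, Coro6, Gpm6a and Vwc2. Syt2, a synaptotagmin of fast release, had 0.04 in cluster 2 and -1.84 in the other RGCs, a difference of 1.88, and -0.58 in cluster 31. Ddx46, an RNA helicase of splicing, had 0.47 and -1.28, a difference of 1.74. Coro6 had 0.21 and -1.39, a difference of 1.59, and 0.71 in cluster 31. Clmp, an adhesion protein, had 0.84 and -0.56, a difference of 1.40. Mon2 had 0.80 and -0.58, a difference of 1.38.

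In the other direction, Grin3a had -0.67 in cluster 2 and 1.08 in the other RGCs, a difference of -1.75, and -0.20 in cluster 31. Gpm6a, a neuronal membrane glycoprotein, had -0.04 and 1.62, a difference of -1.67, and 0.07 in cluster 31. Vwc2 had -0.50 and 1.12, a difference of -1.62. Scai had -0.51 and 1.07, a difference of -1.59, and 1.84 in cluster 31. Chrm3, a muscarinic acetylcholine receptor, had -0.49 and 0.99, a difference of -1.48, and 1.42 in cluster 31.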

How the results depend on the processing

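Differences between genotypes rest on 1 library each, so no replicate could be left out and no paired analysis was possible because each genotype has 1 sample. At 50 CPM, 87 genes were higher and 52 lower in Tet tcKO within cluster 2, and at 200 CPM 4 were higher and 7 lower. When a gene counted once in a nucleus at most, 33 were higher. Against the other RGCs, the 2 genes higher in both libraries became 6 at 50 CPM, 1 at 200 CPM, 1 with a gene counted at most once per nucleus, 1 without the nucleus with the highest count and 6 with equal weight to each other RGC cluster. The 2 lower genes became 1 with TMM factors, at 200 CPM and with nuclei of 1000 UMIs or more, and 0 with median-of-ratios factors, with a gene counted at most once per nucleus and with the mean of nucleus CPM. The causes of these moves were not tested. The share of cluster 2 in Cre- was 25.6% with nuclei of 1000 UMIs or more. Without the 508 of 7357 and 394 of 6766 nuclei at or above the 95th percentile of doublet scores, which took 0 and 1 nuclei of cluster 2, the shares were 21.2% and 27.1%.

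The ratio of Gm32828 reversed to 0.20 with a gene counted at most once per nucleus and to 0.50 without the nucleus with the highest count. Over all alternatives, 552 ratios of single genes were recomputed, and 21 moved outside the counting interval, 19 of them with a gene counted at most once per nucleus. TMM and median-of-ratios factors shifted all genotype ratios by 0.02 and 0.05 on the log2 scale. With a threshold of 5 Il1rapl2 UMIs, chosen after seeing the data, 20 genes were higher and 73 lower in both libraries. Genes under the level filter often had too few UMIs for a 2-fold difference to be detectable at this depth.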

Other observations

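Genes below the level filter of the report held a few uneven counts in cluster 2. Tbx20, a transcription factor of intrinsically photosensitive RGCs, was counted 14 times in Cre- and 4 times in Tet tcKO, and Scn4b, a sodium channel beta subunit, had 11 and 3. Spp1, an alpha RGC marker, had 6 of 10 UMIs in the Il1rapl2-rich nuclei of Cre- and 7 of 10 in those of Tet tcKO. Glra1, a glycine receptor subunit, stood at 215 CPM in the Il1rapl2-rich nuclei of Cre- against 24.6 in the rest, and at 78.9 against 34.6 in Tet tcKO. Rbpms was lower in the Il1rapl2-rich nuclei, at 662 against 1388 CPM in Cre- and at 861 against 1169 in Tet tcKO. Cartpt had 0 of 23 UMIs in those nuclei of Cre- and 1 of 20 in those of Tet tcKO. At 500 UMIs, a nucleus of cluster 2 held a median of 383 genes in Cre- and 395 in Tet tcKO, against 398 and 401 in the other RGCs.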
